A study of Mus musculus with 2 samples.

Results

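The replication-dependent histone genes were examined in RNA from mouse forebrain at embryonic day 11.5. Members were the genes whose release M21 symbol begins with Hist1h, Hist2h, Hist3h or Hist4h, names marked as pseudogenes by the suffix ps being left out. Of 69 such symbols, 66 had a row, out of 43346 genes in the tables, and they comprised 6 H1, 20 H2A, 15 H2B, 12 H3 and 13 H4 genes. Release M21 classes 64 of the 66 as protein-coding and the other two, Hist1h2aj and Hist1h2al, as pseudogenes. The series has 1 group of 2 libraries, from strain B6NCrl embryos of both sexes, with no transgene or treatment named. Forebrains of 109 embryos were pooled for replicate 1 and of 88 for replicate 2. An input of 1 cell-equivalent of total RNA went into each library by a SmartSeq protocol, in which complementary DNA is amplified before sequencing. With a single group there was no comparison between conditions and no test. Every level below is therefore given for each library, and the difference between the libraries is the only spread available.

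Replication-dependent histone genes supply the core histones H2A, H2B, H3 and H4 and the linker histone H1 while DNA is being copied. They lie in clusters, most have no introns, and their messages usually end in a conserved stem-loop rather than a poly(A) tail. The stem-loop binding protein holds that structure, and the U7 small nuclear ribonucleoprotein directs the cut just downstream of it. The forebrain at this stage consists largely of dividing progenitors, a tissue in which these genes are active.

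The depth was 28639678 expected counts in replicate 1 and 28948074 in replicate 2. Spike-in RNAs took 8.44% and 6.56% of the TPM (transcripts per 1000000 transcripts), which lowers the TPM of every gene by that share. Of 6 forebrain markers, 5 were detected at 1 TPM or more in both libraries, the exception being Six3 at 2.07 and 0 TPM, and 4 hindbrain and spinal markers (En1, Gbx2, Hoxa2, Hoxb1) had 0 counts in both. RNA of erythroid cells was present, with the embryonic globin genes Hbb-y at 12348 and 16181 TPM and Hba-x at 4019 and 4454 TPM, and the haem synthesis gene Alas2 at 26.4 and 44.5 TPM. Nucleated blood cells of the embryo also divide, and their part in the histone values was not tested. The 7 S-phase markers were all detected in both libraries, at summed levels of 1810 and 1899 TPM.

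The stem-loop was read from the annotated transcripts because it is the feature that sets these messages apart. The consensus GG, 3 pyrimidines, TT, a pyrimidine, T, any base, A, 3 purines and CC, which is 16 bases long, was present in 44 of the 66 members and in 24 of 21837 other protein-coding genes (0.110%). It was found in 4 of 6 H1, 11 of 20 H2A, 8 of 15 H2B, 9 of 12 H3 and 12 of 13 H4 genes. Histone genes outside the 66 were not taken out of the other genes. Members' models with the consensus had a median length of 619 bases and those without it 402 bases. The search could thus not see a stem-loop lying beyond a model's end. The lines below give the 3′ site of the member of highest mean TPM in its class, or the next one whose model holds the stem-loop, 5′ to 3′, with the 16 bases in capitals.
Hist1h1e: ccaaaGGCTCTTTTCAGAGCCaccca
Hist1h2ap: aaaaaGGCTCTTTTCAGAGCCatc
Hist3h2ba: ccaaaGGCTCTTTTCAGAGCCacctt
Hist1h3c: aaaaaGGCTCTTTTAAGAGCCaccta
Hist1h4d: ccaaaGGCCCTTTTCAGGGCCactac
The H4 members carried their own versions of the stem, led by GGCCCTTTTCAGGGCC in 7 of 12, whereas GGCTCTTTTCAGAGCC stood in 24 members of the other classes.

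Most of the histone signal came from a single H2A row. The members summed to 8203 TPM in replicate 1 and 8637 TPM in replicate 2, 0.896% and 0.924% of the TPM of all genes, and Hist1h2ap alone held 79.6% and 73.7% of that sum. Hist1h2ap was at 6531 TPM in replicate 1 and 6367 TPM in replicate 2 (6449 ± 116, SD, n = 2), from 55978 and 54089 expected counts. It ranked 6th among all genes and stood 9.24 times above the next member, the H4 gene Hist1h4d. The other 65 members together reached 1672 and 2270 TPM.

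The Hist1h2ap row cannot be read apart from Hist1h2ao, a second H2A gene of the same cluster. Hist1h2ap lies at chr13:21833026-21833507 and Hist1h2ao at chr13:21810465-21810944 (mm10, both without introns). Their annotated transcripts, of 482 and 480 bases, were identical at all 452 positions that align, with 0 mismatches, and differ only where the ends of the models are set. Of the 100-base windows of Hist1h2ap, 92.2% occurred in Hist1h2ao and 68.7% in Hist1h2ag, and 7.83% occurred in no other gene. The deposited estimate nevertheless gave Hist1h2ao 0 and 3.56 TPM, and the pair together 6531 and 6371 TPM. The level is thus that of a shared sequence, and its division between the genes rests on the model ends. The deposited interval for Hist1h2ap ran from 6313 to 6427 TPM in replicate 1, around the posterior mean of 6371 and below the point estimate.

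The near-copies also shared a long run of A. Directly before the stem-loop, both have 12 consecutive A, given here in capitals with 7 bases on each side.
Hist1h2ap: cgaaaagAAAAAAAAAAAAggctctt
Hist1h2ao: cgaaaagAAAAAAAAAAAAggctctt
Among the 47 members with a quantified transcript of the same version in M21, the longest run of A in such transcripts had a median of 4 bases. It reached 7 at most outside Hist1h2ap and Hist1h2ao. Among transcripts of changed version, Hist1h2ac has a run of 15 and Hist1h2be one of 11 in M21. Hist1h2ae, Hist1h1d and Hist1h2bc have runs of 8 there. That of Hist1h2ae, at 221 and 273 TPM, ends 4 bases before the stem-loop in a model of 704 bases, against 460 quantified. Hist1h2be, at 0 and 0.25 TPM, is also among the 47 through another transcript, with a run of 7. For Hist1h2ac, at 3.01 and 5.07 TPM, the M21 model has 2482 bases and the quantified one 476, so the run may lie outside what was quantified. A run of at least 12 occurs in 9.30% of other protein-coding genes. SmartSeq protocols generally prime complementary DNA synthesis with oligo(dT), which pairs with A; the sources at hand do not name the primer of these libraries. Whether the run bears on the level of Hist1h2ap was not tested. The plot of A run against level shows the range of the other members.

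**Figure D1:**
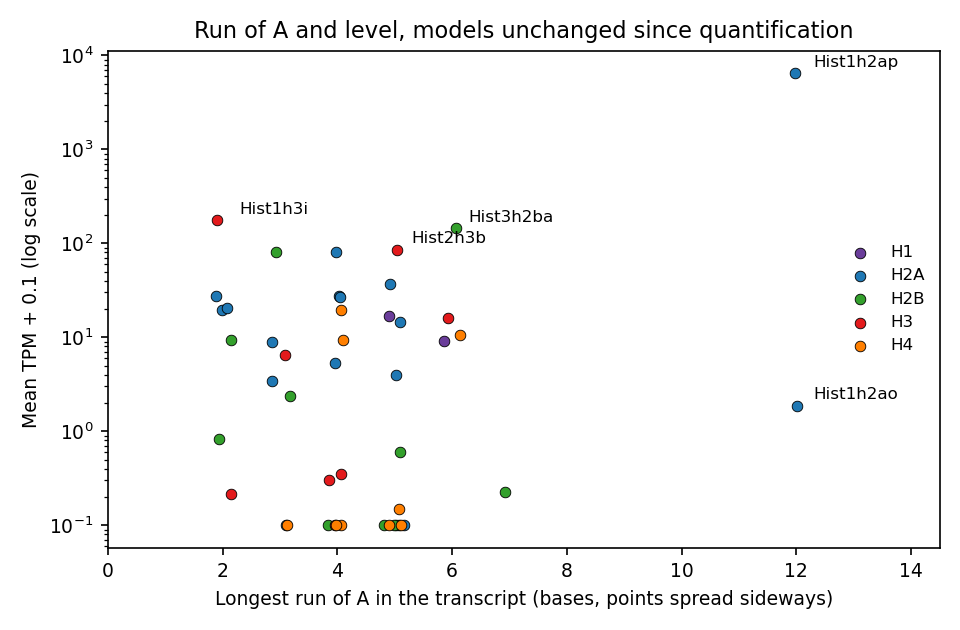
Longest run of A in the annotated transcript (x axis, bases) against mean TPM of the 2 libraries plus 0.1 (y axis, log scale) for the 47 members with a transcript of unchanged version. Transcripts of changed version are left out, and each point is a gene, coloured by class. Hist1h2ap and Hist1h2ao stand alone at 12 bases, at mean levels of 6449 and 1.78 TPM, and every other member lies at 7 bases or fewer.

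Detection of single members was incomplete. At a TPM of at least 1, 19 of the 66 members (28.8%) were detected in both libraries, 10 in replicate 1 alone, 11 in replicate 2 alone and 26 in neither. Among all protein-coding genes 30.4% were detected in both, so the members' share was near the background. Both libraries had 0 counts for 17 members. A further 14 members had 0 counts in replicate 1 only and 10 in replicate 2 only. A count of 0 allows up to 3 counts, or 0.110 and 0.107 counts per 1000000 gene counts, for counting error alone.

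**Figure D2:**
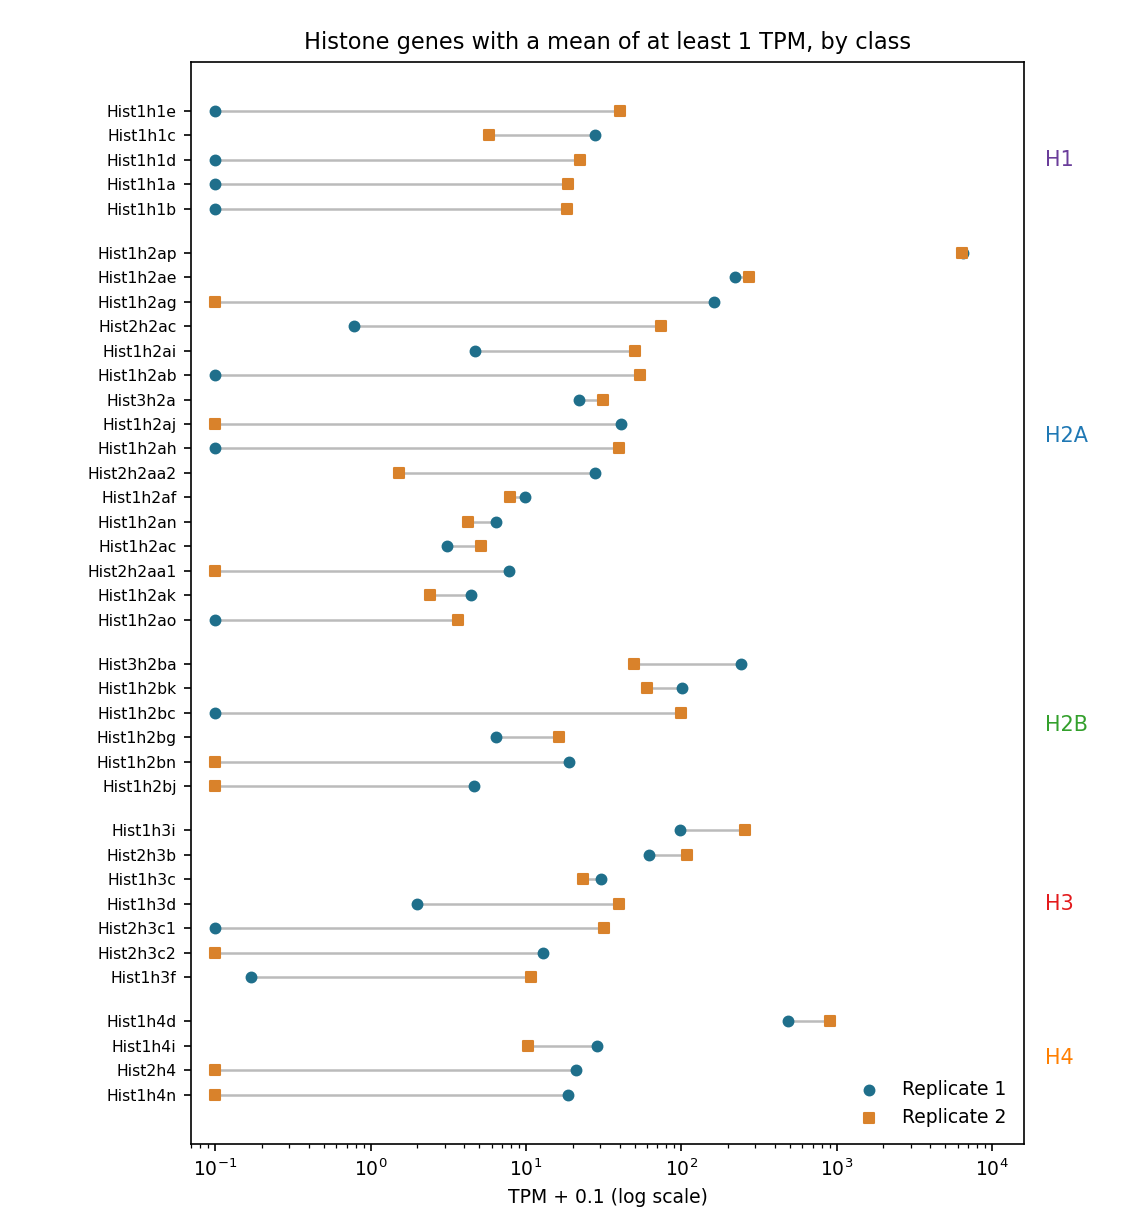
TPM plus 0.1 (x axis, log scale) of each member with a mean of at least 1 TPM, ordered by class and by mean level; circles are replicate 1, squares replicate 2, and a grey line joins the libraries. Points at the left edge are libraries with a TPM of 0; Hist1h2ap at 6531 and 6367 TPM lies to the right of all other members.

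The linker histones, which bind where DNA enters and leaves the nucleosome, were the lowest class, with a summed level of 27.8 TPM in replicate 1 and 104.6 TPM in replicate 2. Hist1h1e was at 0 TPM in replicate 1 and 40.0 TPM in replicate 2 (576 counts). Hist1h1d was at 0 and 22.2 TPM. Hist1h1a was at 0 and 18.4 TPM, and Hist1h1b at 0 and 18.3 TPM. All of these were thus read in replicate 2 only. Hist1h1c had the opposite order, with 27.8 TPM in replicate 1 and 5.68 TPM in replicate 2, and was the only H1 gene detected in both. Hist1h1t, the testis linker histone, had 0 counts in both libraries.

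Apart from Hist1h2ap, the H2A genes summed to 511 and 547 TPM, the class sum that differed least between the libraries. Hist1h2ae made up most of the steady signal, at 221 TPM in replicate 1 and 273 TPM in replicate 2 (247 ± 36.8, SD, n = 2). Hist3h2a, from the small cluster on chromosome 11, was at 21.9 and 31.2 TPM. It overlaps Trim17 on the same strand, which had 0 and 378 counts. These were the only H2A genes besides Hist1h2ap above a mean of 10 TPM that differed less than 2-fold.

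The other H2A genes at that level were read mainly in 1 library. Hist1h2ag was at 163 TPM in replicate 1 (1411 counts) and 0 in replicate 2. Hist1h2aj, annotated as a pseudogene, was at 40.6 and 0 TPM. Hist2h2aa2 was at 27.6 and 1.42 TPM. These 3 genes were high in replicate 1. Hist2h2ac was at 0.68 TPM in replicate 1 and 73.5 TPM in replicate 2. Hist1h2ab was at 0 and 54.3 TPM. Hist1h2ah was at 0 and 39.3 TPM, and Hist1h2ai at 4.60 and 50.4 TPM. These 4 were high in replicate 2. Several of these genes are near-copies, so reads assigned to one may belong to another. Of the 100-base windows, 8.30% were found in no other gene for Hist1h2aj, 10.5% for Hist1h2ah and 11.6% for Hist1h2ai. Hist1h2aj shared 91.7% of its windows with Hist1h2ai, and together they were at 45.2 and 50.4 TPM. At 0 TPM in replicate 2, Hist1h2aj had an upper interval bound of 16.03 TPM. Hist2h2aa1 and Hist2h2aa2 are identical over all 528 aligned bases, and their joint level was 35.2 and 1.42 TPM.

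The H2B genes summed to 375 and 225 TPM and were the only class other than H2A with a lower sum in replicate 2. Hist3h2ba had the highest mean but led in replicate 1 only, at 241 TPM in replicate 1 (2779 counts) and 49.7 TPM in replicate 2 (568 counts). Hist1h2bk was at 101 and 59.8 TPM, within 2-fold. Hist1h2bc was at 0 TPM in replicate 1 and 98.9 TPM in replicate 2. Hist1h2bg was lower in replicate 1 as well, at 6.29 against 16.2 TPM. Hist1h2bn was at 18.7 and 0 TPM. Of 15 H2B genes, 7 were detected in neither library.

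The H3 genes summed to 204 TPM in replicate 1 and 472 TPM in replicate 2. Hist1h3i led, at 97.4 and 256 TPM (177 ± 112, SD, n = 2). Hist2h3b was at 62.0 and 109 TPM. Hist1h3c was the steadiest of the 5 highest H3 genes, at 30.1 and 23.2 TPM. Hist1h3d was at 1.88 TPM in replicate 1 and 39.6 TPM in replicate 2, and Hist2h3c1 at 0 and 31.9 TPM. Of the leading H3 genes, 4 of 5 were thus higher in replicate 2.

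Hist2h3b, Hist2h3c1 and Hist2h3c2 lie in the same cluster, and neither Hist2h3b nor Hist2h3c1 has a 100-base window of its own. In replicate 2 the deposited interval of Hist2h3c1 reached from 0.000498 to 31.1 TPM and its posterior mean was 18.8 TPM. Hist2h3c2 was at 12.7 and 0 TPM. Over these 3 genes together the level was 74.6 TPM in replicate 1 and 141 TPM in replicate 2, from 800 and 2162 expected counts. Windows of all 3 also occur in Gm20634 and Gm20628, so this sum too depends on how the shared reads were assigned.

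The H4 class was carried by Hist1h4d, at 486 TPM in replicate 1 (3198 counts) and 910 TPM in replicate 2 (5937 counts; 698 ± 300, SD, n = 2). It held 87.7% and 98.8% of the H4 sum of 554 and 921 TPM. Hist1h4d lies at chr13:23581598-23582735, and none of the 100-base windows of its M21 transcript occurs in another gene, although that model is longer (1138 bases) than the one quantified (393 bases). Hist1h4i was at 28.5 and 10.2 TPM. Hist2h4 was at 20.9 and 0 TPM, and Hist1h4n at 18.4 and 0 TPM. Below these genes no H4 gene reached 1 TPM: Hist1h4c was at 0.42 and 0.31 TPM, and 7 of the 13 H4 genes, Hist4h4 of chromosome 6 among them, had 0 counts in both libraries.

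Every nucleosome takes the proteins H2A, H2B, H3 and H4 in equal number, while the summed message levels here were unequal. Protein was not measured, and the variant histone genes are not in these sums. With all members, H2A held 85.8% and 80.1% of the summed TPM, H4 6.76% and 10.7%, H3 2.49% and 5.47%, H2B 4.57% and 2.61%, and H1 0.339% and 1.21%. Without Hist1h2ap the core classes were closer. H4 then held 33.2% and 40.6%, H2A 30.6% and 24.1%, H2B 22.4% and 9.92%, H3 12.2% and 20.8%, and H1 1.66% and 4.61%. The order of H2B and H3 differed between the libraries in both accounts, and H2A, H4 and H1 kept their places in each.

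**Figure D3:**
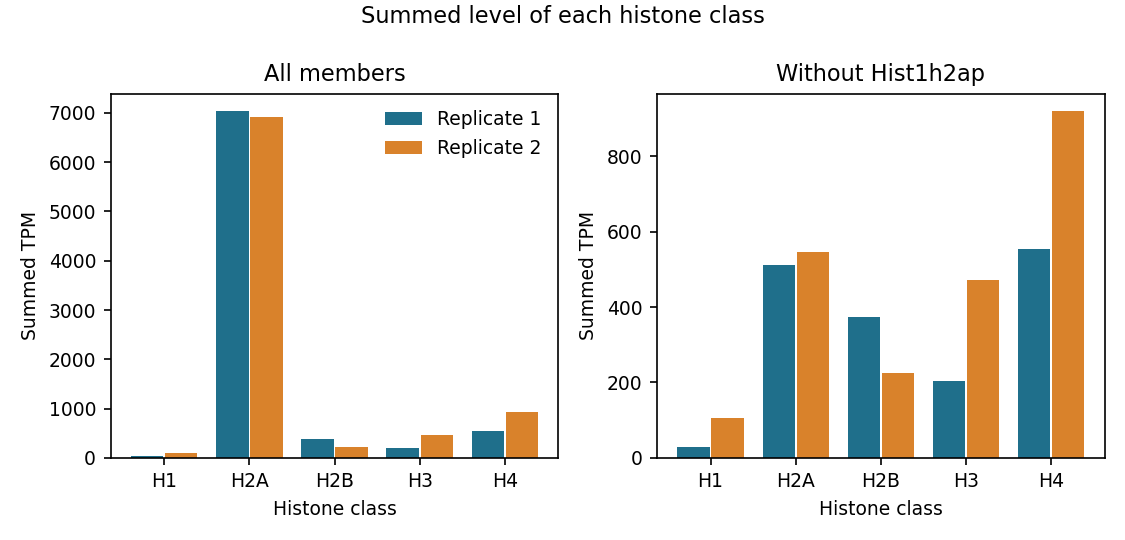
Summed TPM (y axis) of each histone class (x axis) in replicate 1 and replicate 2, with all members at left and without Hist1h2ap at right; the y scales differ. H2A reaches 7042 and 6914 TPM at left and 511 and 547 TPM at right, where H4 is the highest class at 554 and 921 TPM.

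Many single members differed between the libraries, as did many other genes of their level. Differences were taken as replicate 2 minus replicate 1 in log2(TPM + 1), which understates the change of low genes. Of 25 members with a mean of at least 10 TPM, 18 differed at least 2-fold, against 51.3% of all 7680 genes at that level. Of these, 11 were higher in replicate 2, against 26.6% of all genes, and 7 in replicate 1, against 24.7%. Members were mostly of low level, where differences are frequent. From 10 to 20 TPM all 8 members differed 2-fold, against 75.6% of all genes, and from 20 to 50 TPM 7 of 9 did, against 56.1%. From 50 to 100 TPM it was 1 of 3, against 42.9%, and from 100 TPM 2 of 5 (Hist3h2ba and Hist1h3i), against 19.5%.

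A gene was called read in 1 library alone if the other held under 1% of its depth-scaled counts. This applied to 10 of the 25 members, 3 in replicate 1 and 7 in replicate 2, against 18.1% of all genes at a mean of at least 10 TPM. The median difference of the 25 members was 0.81 on the log2 scale, against 0.02 for all genes. It changed with the level of the genes included, to 0.40 over members with a mean of at least 1 TPM and to 0 over all 66.

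**Figure D4:**
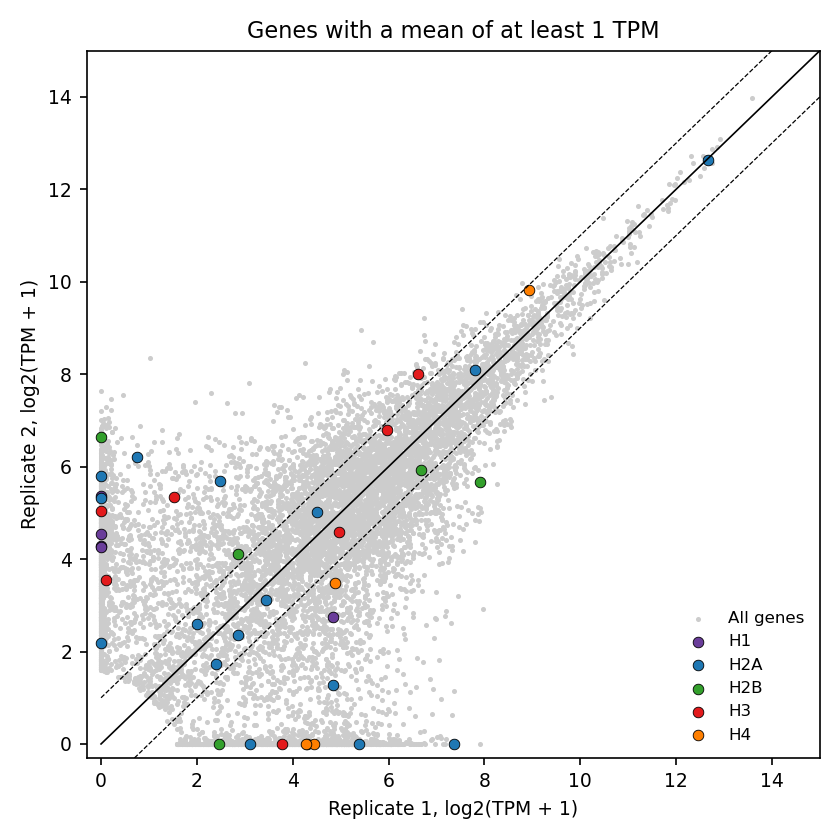
Level in replicate 1 (x axis) against replicate 2 (y axis), both as log2(TPM + 1), for genes with a mean of at least 1 TPM; grey points are all genes, coloured points the histone members by class, the solid line is equality and the dashed lines a 2-fold difference. Hist1h2ap lies near equality at the top, while other members lie along both axes, read in 1 library alone.

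The members lie in 4 clusters named by their symbols. The Hist1 cluster on chromosome 13 has 54 members, 53 of them within chr13:21715763-23934851 (2.22 Mb), the pseudogene Hist1h2al lying apart near chr13:51202727-51203065. It held 7809 and 8340 TPM, or 95.2% and 96.6% of the summed level. The Hist2 cluster on chromosome 3 has 9 members and held 131 and 216 TPM. The 2 Hist3 members on chromosome 11 held 263 and 80.9 TPM, mostly from Hist3h2ba in replicate 1.

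Within the clusters, 12 pairs of an H2A and an H2B gene stand head to head, with 175 to 305 bases between their starts, so that each pair shares an intervening promoter region. The levels within pairs were unequal. Hist1h2ap was at 6531 and 6367 TPM while its partner Hist1h2br was at 1.00 and 0 TPM. Both share most of their sequence with a gene of another pair, Hist1h2ap with Hist1h2ao and Hist1h2br with Hist1h2bq. Hist1h2ao and Hist1h2bq form a pair of their own, so the levels of both pairs rest on how shared reads were assigned. Hist1h2ae and Hist1h2bg formed the only pair of which both genes were detected in both libraries, at 221 and 273 TPM against 6.29 and 16.2 TPM. Hist1h2ah and Hist1h2bk showed the opposite order, at 0 and 39.3 TPM against 101 and 59.8 TPM. The H2A gene was higher in both libraries in 5 pairs and the H2B gene in 1, and 2 pairs had no counts at all.

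**Figure D5:**
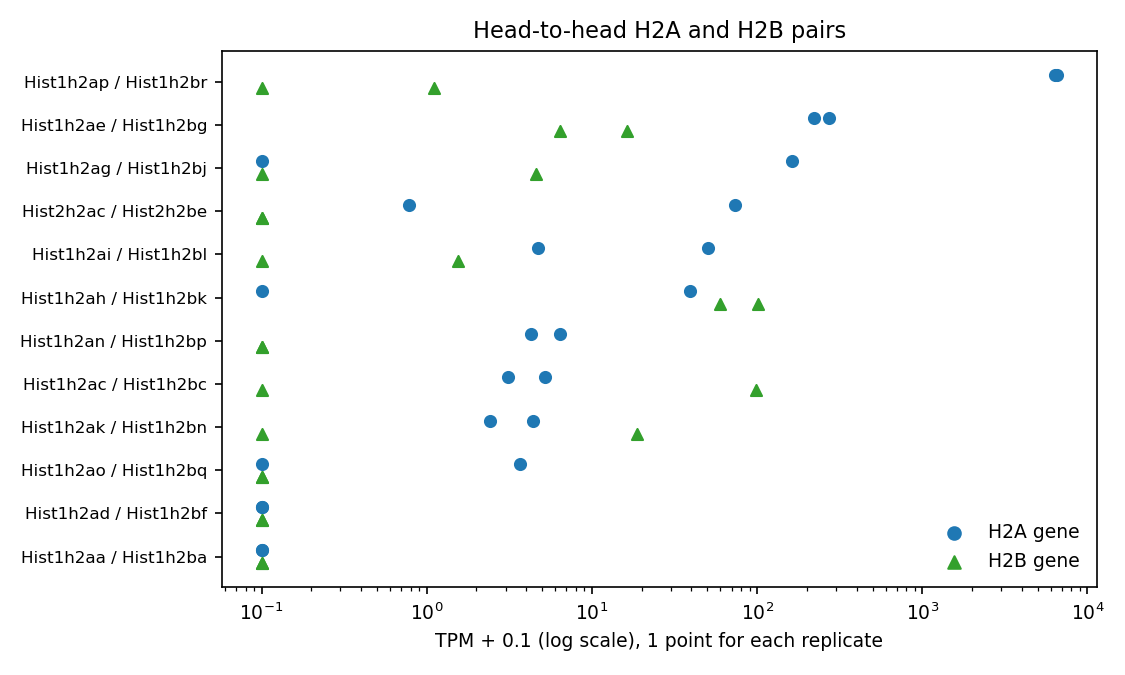
TPM plus 0.1 (x axis, log scale) of the 12 head-to-head pairs, 1 row for each pair; circles are H2A genes and triangles H2B genes, with a point for each library and the left edge marking a TPM of 0. In the top row Hist1h2ap is at 6531 and 6367 TPM while its partner Hist1h2br is at 1.00 and 0 TPM. Both are near-copies of genes in the pair Hist1h2ao and Hist1h2bq, so these levels rest on how shared reads were assigned.

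Some histone genes also have longer, polyadenylated messages, which pass the stem-loop and end at a downstream signal. The quantified model was at least 1000 bases long in 10 members. Of these 10, 9 have a poly(A) signal, AATAAA or ATTAAA, within the last 40 bases of an M21 transcript. For Hist1h2bq it was in the transcript of 1254 bases but not in that of 2015 bases. The share of all genes with such a signal was not counted, so the 9 of 10 has no background beside it. The 10 members summed to 84.3 and 69.0 TPM. The limit of 1000 bases left out shorter models that also pass the stem-loop and hold the signal. Among them are Hist3h2ba (614 bases, 241 and 49.7 TPM) and Hist1h4i (727 bases, 28.5 and 10.2 TPM). Of the 10, Hist3h2a and Hist1h1c were detected in both libraries, and their stem-loops end 1643 and 840 bases before the transcript end. Hist1h2bq, Hist2h2be and Hist4h4 had 0 counts in both. No member with several annotated transcripts reached a mean of 10 TPM, so shares of transcripts are not given.

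Promoters were read from RefSeq (GRCm38.p6), where 59 of the 66 members matched by gene ID, as windows from 250 bases before to 50 after the annotated start. They are shown because the members are expressed together in the cell cycle yet stood at very different levels here. CCAAT, the site of the factor NF-Y, occurred on either strand in 50 of 59 members (84.7%), against 41.1% of 27025 genes. It was in every matched H1, H2A, H2B and H3 promoter and in 3 of 12 H4 promoters. TATAAA occurred in 35 members (59.3%), against 15.7%. The octamer ATTTGCAT, read by Oct-1, occurred in 12 members (20.3%), against 1.97%, and these were 7 H2A and 5 H2B genes. Windows of head-to-head partners overlap and were searched on either strand, so 1 site can be counted for both genes of a pair. The octamer of Hist1h2ae and Hist1h2bg is such a site. Counts of every motif are affected, and members are not independent windows. The H1 box AAACACAAA occurred in 2 members (3.39%), against 0.903%: Hist1h1t, 1 of 6 H1 genes, and the H2A gene Hist1h2ab. The search required all 9 letters. Hist1h1e, Hist1h1c and Hist1h1b hold AAACACAA, the box without its last letter, and the share of all genes with this shorter string was not counted. No motif as spelled contains another, and a match is a string of letters and no evidence of binding.

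The 120 bases before the annotated start are given for the member of highest mean TPM in H1, H2A, H2B and H4, on the gene's own strand, with CCAAT and TATAAA, or their complements ATTGG and TTTATA, in capitals. Hist1h1e and Hist3h2ba did not lead their class in both libraries: Hist1h1c led H1 in replicate 1 and Hist1h2bc led H2B in replicate 2.
Hist1h1e (chr13:23622559-23622678, minus strand): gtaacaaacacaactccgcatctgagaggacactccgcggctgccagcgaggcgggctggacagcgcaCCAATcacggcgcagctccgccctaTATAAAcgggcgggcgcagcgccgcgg
Hist1h2ap (chr13:21833476-21833595, minus strand): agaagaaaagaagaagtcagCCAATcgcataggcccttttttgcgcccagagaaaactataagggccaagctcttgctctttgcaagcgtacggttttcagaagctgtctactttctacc
Hist3h2ba (chr11:58948791-58948910, plus strand): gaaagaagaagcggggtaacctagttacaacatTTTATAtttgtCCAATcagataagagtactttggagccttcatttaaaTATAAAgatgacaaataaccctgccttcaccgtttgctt
Hist1h4d (chr13:23581448-23581567, plus strand): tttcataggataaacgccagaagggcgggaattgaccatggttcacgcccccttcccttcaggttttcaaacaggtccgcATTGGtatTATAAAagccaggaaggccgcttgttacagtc
The RefSeq start of Hist1h2ap lies inside the M21 model, so the last bases of its window are transcribed in M21. TATAAA itself is not in this window, which holds the related letters ctataag.

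Most genes that serve histone messages were detected in both libraries. Over the list of 28 genes, 24 were detected in both libraries, against 30.4% of protein-coding genes, and 9 of the 23 with a mean of at least 10 TPM differed 2-fold, against 51.3% of all genes. Of 8 genes for transcription and cell cycle control, 7 were detected in both libraries, and 4 of 7 at that level differed 2-fold. Ccne2, a cyclin of the entry into S phase, was at 36.8 and 118 TPM. Casp8ap2, a component of the histone locus body, was at 36.8 and 62.7 TPM, and the kinase gene Cdk2 at 54.8 and 34.9 TPM.

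Of 14 genes for 3′ end processing, 12 were detected in both libraries, and 3 of the 12 at a mean of at least 10 TPM differed 2-fold. Slbp, which encodes the stem-loop binding protein, was at 187 TPM in replicate 1 and 180 TPM in replicate 2. Ncbp2, of the cap-binding complex, was at 118 and 105 TPM, and Cpsf3, the endonuclease that makes the cut, at 76.1 and 75.6 TPM. The genes not detected were Zfp473, at 0 counts in both, and Lsm11, a protein of the U7 particle, at 0 and 2 counts; both are named after their values were seen.

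Of 6 genes for histone message decay, 5 were detected in both libraries, and 2 of 4 at a mean of at least 10 TPM differed 2-fold. The helicase gene Dhx9 was at 87.6 and 95.5 TPM, and Lsm1, of the ring that binds oligouridylated ends, at 52.8 and 76.0 TPM. Tut4, a terminal uridylyltransferase gene, was at 20.3 and 69.4 TPM.

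The listed variant histone genes, grouped here as replication-independent and mostly with polyadenylated messages, were abundant. All 9 were detected in both libraries, and they summed to 11705 and 11437 TPM, 1.43 and 1.32 times the sum of the 66 replication-dependent genes. Hist1h2ap held 79.6% and 73.7% of that second sum. How well messages with and without a poly(A) tail were captured was not tested, so the ratios hold for these libraries only. H2afz, the gene of H2A.Z, was at 4597 and 4582 TPM, and H3f3a, a gene of H3.3, at 3370 and 3045 TPM. Of the 8 variants with a mean of at least 10 TPM, 0 differed 2-fold. The variants were mostly at levels where 2-fold differences are rare (19.5% of all genes from 100 TPM), and the difference between the sets was not tested.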

How the data were processed

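Per the file headers, the deposited gene and transcript tables give expected counts (estimated reads, not whole numbers), TPM (transcripts per 1000000 transcripts over all rows, spike-ins included) and FPKM. The deposited interval bounds and posterior SDs were read as a score, and the level of the interval is not stated. The percent of a gene's TPM on each transcript, as deposited, was not analysed. Text deposited with each library names mm10 and annotation M4, per the labels and that text; no source used here names the aligner, the quantifier or the use of strand, so reads of overlapping or antisense genes could not be told apart. Such overlaps touch 25 members, of which 15 overlap only miRNA models. FPKM as deposited by the authors was not analysed.

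Names and coordinates came from GENCODE M21 (same assembly), by gene ID. Rows of spike-ins and other non-gene rows were left out of gene totals. Detection was set at 1 TPM. Differences used log2(TPM + 1) for genes with a mean of at least 10 TPM and 2-fold as the limit. Named genes are the 5 highest members of each class, every member past 2-fold at that level, the highest of each cluster and the 3 highest of each helper role; others are named only to account for overlaps, identical copies, pairs and counts. Windows of 100 bases follow the difference of 99 between length and effective length. Alternatives included edgeR 4.0.16 TMM scaling of rounded expected counts. The 2-fold count and stem-loop search were run on simulated data, with counting error only and with planted sequences that match the consensus. These runs check the calculation and not how calls behave at the spread of these libraries. The members and lists were chosen with earlier results of these data known. A marker of the erythroid list is not reported here. Reads carry no molecular identifiers, so floors cover counting error only.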

Additional observations from a re-analysis of the deposited data

How the results depend on the processing

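Over 56 alternative settings of 9 results, 47 values stayed within 1.5 times (counts), 1 SD of the libraries (levels and shares) or 0.1 (median difference). Part of these could not have moved. For levels and shares, a single library always lies within 1 SD of the mean of both. Rescaling TPM to gene rows leaves every class share unchanged. Members detected numbered 19 in both libraries and 29 to 30 when a single library was taken. Counting 2-fold differences with no filter on level gave 29 of 66 members in place of 18 of 25. The median log2 difference of 0.81 fell to 0.40 at a mean of at least 1 TPM and to 0 with no filter, where 17 members are at 0 in both libraries. The mean summed level of 8420 TPM became 9101 when spike-ins were left out of the total, and 7972 over the 11 members whose interval bounds lie within 2-fold in both libraries. In counts per 1000000 gene counts (CPM), a different unit, it was 2647, and the share of H1 was 1.68% in place of 0.775%. By CPM H2B stood above H3, whose shares were 4.45% and 4.40%. No paired analysis was possible because there is a single group. For counting error alone, a member at 0 counts may hold up to 3 counts. The deposited uncertainty can be wider: Hist1h2aj, at 0 counts in replicate 2, had a posterior SD of 28.2 counts there. Whatever the depth, few or none of the 100-base windows of Hist1h2ap, Hist1h2aj, Hist1h2ah, Hist1h2ai, Hist2h2aa1, Hist2h2aa2, Hist2h3b and Hist2h3c1 are their own. Differences of these genes between the libraries thus also depend on how shared reads were assigned.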

Other observations

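CCAAT occurred in the promoter window of 21 of 22 matched members with a mean of at least 10 TPM and of 8 of 15 matched members at 0 counts in both libraries. TATAAA occurred in 13 of the 22 and in 10 of the 15. These counts for CCAAT follow the classes: among members at 0 it occurred in 0 of 7 H4 windows and 8 of 8 others, and the member without it at 10 TPM or more is the H4 gene Hist1h4i. No test was made. The stem-loop consensus was present in 19 of the 25 members with a mean of at least 10 TPM, against 44 of 66 in all.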
